A study of Mus musculus with 60 samples.

Results

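Matrix metalloproteinases and their tissue inhibitors were followed in Kupffer cells, the macrophages resident in liver sinusoids, from 15 mice. The 10 genes were taken from the deposited count table by symbol, and all 10 had a row among its 24411 genes. They are the 7 metalloproteinase genes Mmp8, Mmp9, Mmp12, Mmp13, Mmp14, Mmp19 and Mmp27 and the 3 inhibitor genes Timp1, Timp2 and Timp3. Of these, 8 were abundant enough to be tested, and Mmp19 and Timp1 were not. The C57BL/6J mice were 8 weeks old and formed 3 groups of 5. Wild-type mice received corn oil, wild-type mice received carbon tetrachloride (CCl4), and Trem1-deficient mice received CCl4. The solvent, which injures hepatocytes, was diluted 1:4 in corn oil and given as a single dose of 2 µl/g, and the cells were collected at 12 h. Trem1 codes for a receptor that amplifies inflammatory signals in myeloid cells, and the labels do not say which part of the gene the deficient mice lack. No Trem1-deficient mice were given oil, so an effect of the genotype alone on these genes was not measured. Cells were depleted of those that bind CD11b beads and then selected with F4/80 beads, so each library is a bead-selected fraction and not a single sorted cell type.

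Matrix metalloproteinases are zinc-dependent endopeptidases that cut collagen, elastin, fibronectin and many other extracellular proteins. Most are secreted as inactive precursors, Mmp14 stays in the plasma membrane, and the TIMP proteins block their active sites. In injured liver, macrophages and infiltrating neutrophils are known sources of these proteases, and the balance of protease and inhibitor is known to bear on how scar matrix is laid down and removed.

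Mmp8, Mmp12, Mmp13 and Mmp27 lie in 1 cluster of 10 Mmp genes on chromosome 9, which spans 427 kb on GRCm38, the assembly of mm10 (GENCODE M21). Mmp8, the gene of neutrophil collagenase, lies at chr9:7558456-7568485 and Mmp27, a relative of the stromelysins, at chr9:7571396-7581885, both on the plus strand. Only 2910 bases separate the end of Mmp8 from the start of Mmp27, and their levels moved in opposite directions after CCl4. The 250 bases before the annotated start of each are shown because these neighbours differ so in their response, and those of Mmp12 and Mmp13 because they hold a match to the AP-1 motif TGANTCA, which is its own reverse complement and is printed in capitals. Sequences are from RefSeq on GRCm38.p6, which had windows for 8 of the 10 genes (none for Mmp9 and Mmp19).
Mmp8 promoter, chr9:7558179-7558428, plus strand: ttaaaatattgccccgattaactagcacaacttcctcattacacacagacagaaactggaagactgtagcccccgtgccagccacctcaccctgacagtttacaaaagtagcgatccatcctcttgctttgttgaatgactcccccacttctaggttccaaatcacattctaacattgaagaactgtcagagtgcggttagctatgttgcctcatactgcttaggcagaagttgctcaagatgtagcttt
Mmp27 promoter, chr9:7571146-7571395, plus strand: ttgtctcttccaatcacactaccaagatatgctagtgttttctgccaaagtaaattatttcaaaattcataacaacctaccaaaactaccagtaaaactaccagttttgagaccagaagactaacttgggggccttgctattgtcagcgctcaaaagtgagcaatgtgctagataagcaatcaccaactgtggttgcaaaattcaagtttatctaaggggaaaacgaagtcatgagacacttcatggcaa
Mmp12 promoter at its second start site, chr9:7347124-7347373, plus strand: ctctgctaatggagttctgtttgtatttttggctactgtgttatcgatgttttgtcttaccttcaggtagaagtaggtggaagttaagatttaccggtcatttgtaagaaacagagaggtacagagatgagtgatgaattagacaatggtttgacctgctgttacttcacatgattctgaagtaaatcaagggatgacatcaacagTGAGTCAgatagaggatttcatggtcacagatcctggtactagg
Mmp13 promoter, chr9:7272264-7272513, plus strand: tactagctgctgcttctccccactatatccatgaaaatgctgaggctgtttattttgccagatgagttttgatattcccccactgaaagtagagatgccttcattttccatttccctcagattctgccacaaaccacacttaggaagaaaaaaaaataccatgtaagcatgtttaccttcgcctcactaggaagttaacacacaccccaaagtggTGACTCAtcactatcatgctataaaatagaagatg
The match began 44 bases before the second start site of Mmp12 and 35 bases before the start of Mmp13. The window at the first start site of Mmp12 (chr9:7344147-7344396) held no match. Of 9 windows of these genes, 2 held the motif, and 2217 of all 32851 promoter windows of that length did (6.75%). The windows of Mmp8 and Mmp27 did not hold these letters, which says nothing about the factor.

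Counts came from 3' tag libraries (Lexogen QuantSeq), in which a transcript gives reads from its 3' end, so levels of different genes are compared with no correction for length. Gene counts per library came to 892498 to 1922569 in the oil group, 812320 to 1912946 in wild-type CCl4 mice and 1250547 to 2593004 in Trem1-deficient mice, and the 3 counts that a count of 0 may hide correspond to 1.00 to 4.15 TMM-scaled CPM (counts per 1e6). Trem1 itself had 35 to 100 counts per mouse after oil, 167 to 578 in wild type after CCl4 and 2 to 25 in the deficient mice. The sequencing index numbers in the labels fall into 2 series, which separate all 5 oil mice and Trem1-deficient mice 1 and 2 (series A, 7 libraries) from all wild-type CCl4 mice plus Trem1-deficient mice 3, 4 and 5 (series B, 8 libraries). The labels call all mice male, yet Xist had 72 to 1552 counts and 4 Y-linked genes together 0 to 7 in series A, against 1 to 31 and 134 to 425 in series B. In wild-type mice the treatment, the index series and this sex signal therefore cannot be told apart. Summed Kupffer cell markers (13 of 13 found) were at 30971 to 75452 CPM of the library total after oil, 5222 to 17618 in wild-type CCl4 mice and 53983 to 69239 in Trem1-deficient mice. C1qa and Cd5l weigh most in this sum, at means of 20683 and 19169 TMM-scaled CPM after oil. Only Marco (1197.5 after oil, 7422 CPM) and Cd163 (4027, 5582) had higher means in Trem1-deficient mice than after oil. The other markers had lower means there, such as Clec4f (2261 after oil, 1259 CPM) and Csf1r (3665, 2089).

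After oil, Timp2 had the highest mean level of the 10 genes, at 394 ± 89.2 CPM (SD, n = 5), and its lowest mouse (299 CPM) lay above every value of the other 9 genes in that group. Mmp14 followed at 106 ± 62.4 CPM and Timp3 at 90.7 CPM on average, and these neighbours overlapped. Mmp27 came next at 23.4 ± 27.2 CPM, within the spread of Mmp9, Mmp12 and Mmp8, which averaged 15.9, 14.6 and 7.51 CPM. In wild-type CCl4 mice the order was Timp3 (367 CPM), Mmp8 (228), Mmp12 (198), Mmp14 (187), Timp2 (110) and Mmp9 (107), with overlapping ranges between each neighbouring pair, and Mmp27 was near 0. In Trem1-deficient CCl4 mice Timp2 (231 CPM), Mmp14 (215), Timp3 (130) and Mmp12 (115) led, again with overlap between neighbours.

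**Figure D1:**
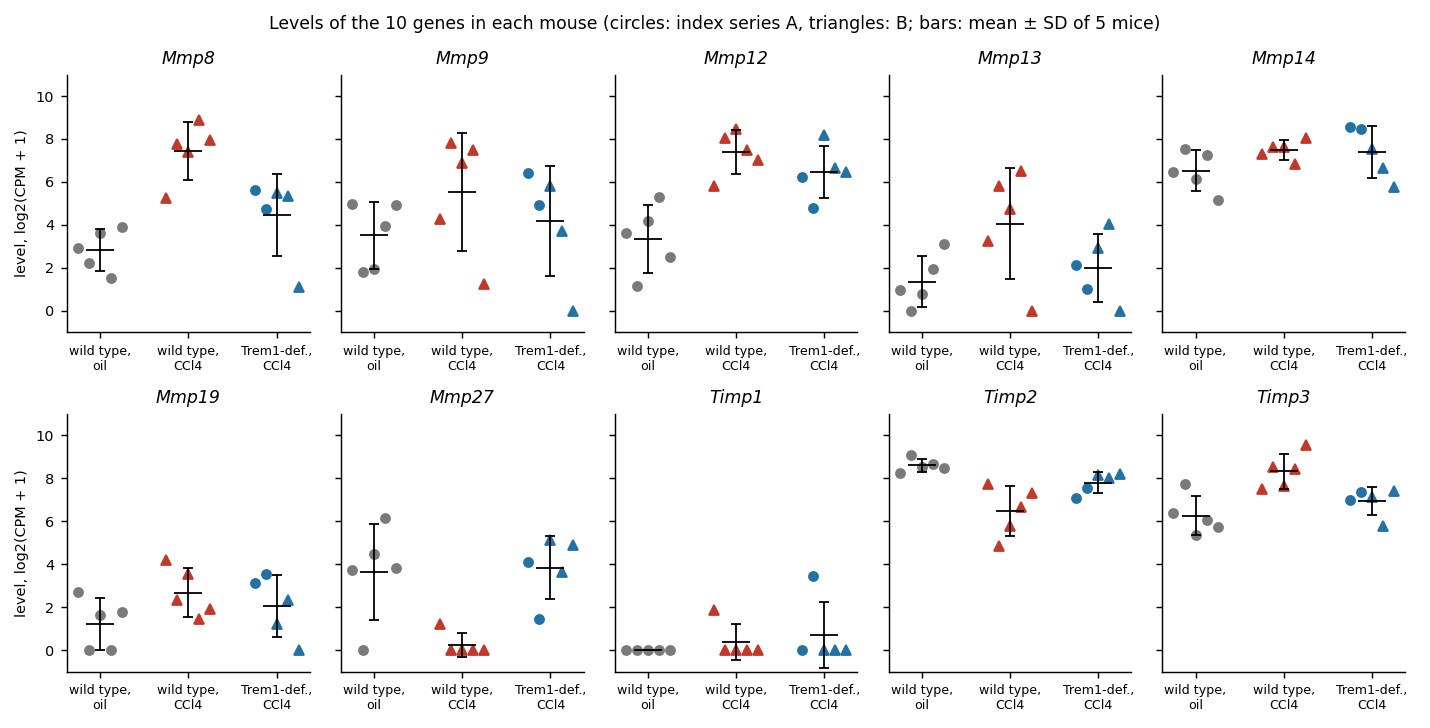
Level of each of the 10 genes in each mouse on a log2(CPM + 1) axis, with the mean and SD over 5 mice of the log2 values as bars, and circles for index series A and triangles for series B. Mmp8 and Mmp12 lie higher and Timp2 lower in every wild-type CCl4 mouse than in any oil mouse, and Mmp27 is at 0 in 4 of 5 wild-type CCl4 mice.

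CCl4 in wild-type mice went with higher Mmp8, Mmp12 and Timp3 and lower Mmp27 and Timp2. These were 5 of 8 tested genes at an adjusted p under 0.05 (edgeR quasi-likelihood test, adjusted by Benjamini-Hochberg over 9001 genes), 3 higher and 2 lower, where 5.13% of all tested genes passed, 3.04% higher and 2.09% lower. Ranges of the groups did not overlap for 3 of the 8, against 6.58% of all tested genes. The comparison asks what the acute injury does to the protease programme of these cells. In a bulk library, fewer cells of a type and less RNA per cell cannot be told apart, and this holds for every difference below.

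Mmp8 stood at 6.58, 3.76, 11.4, 1.92 and 13.9 CPM in the 5 oil mice. In wild-type CCl4 mice it stood at 37.2, 215, 170, 472 and 244 CPM. Every treated mouse was above every oil mouse, and treated mouse 1 was the lowest of its group. The log2 fold change was 4.86 ± 0.77 (SE), a 29.0-fold difference (edgeR adjusted p = 1.35e-04). With the index series as a term, which then rests on the Trem1-deficient mice alone, Mmp8 stayed at 5.23 (edgeR adjusted p = 0.0373).

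Mmp12, the macrophage elastase, had 11.3, 1.25, 17.1, 38.4 and 4.78 CPM after oil. After CCl4 it had 55.8, 267, 357, 180 and 129 CPM in wild-type mice. The groups did not overlap, and the log2 fold change was 3.76 ± 0.71 (edgeR adjusted p = 0.00153). Without oil mouse 4, the highest of its group, it was 4.49. The 3' end of Mmp12 (chr9:7344381-7369499, plus strand) overlaps exons of the antisense gene Mmp1b, and no source used here gives the strand setting of the counting. Mmp1b had 24 counts in all, each in wild-type CCl4 mouse 2, against 2450 for Mmp12.

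Mmp27 moved the other way. It had 12.2, 0, 21.4, 70.1 and 13.4 CPM after oil, from 13, 0, 30, 73 and 28 counts. In wild-type CCl4 mice only mouse 1 had any, 2 counts (1.33 CPM), and the other 4 had 0. Oil mouse 2 was also at 0, so the groups overlapped. Pooled over mice, the oil level was 67.7 times that of CCl4 (95% interval 18.4 to 564, counting error only), and the fitted log2 fold change was −5.92 ± 1.53 (edgeR adjusted p = 0.0187). Without treated mouse 1, the oil level was at least 33.8-fold higher against 3 counts over the other 4 mice. Without oil mouse 4 the log2 fold change was −4.95 (edgeR adjusted p = 0.0820) and in the fit of these 2 groups alone the adjusted p was 0.0549.

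The other metalloproteinases had higher means after CCl4 and did not pass the test. Mmp9, gelatinase B, had 30.1, 2.5, 2.86, 14.4 and 29.6 CPM after oil and 18.6, 220, 116, 176 and 1.38 CPM in wild-type CCl4 mice. Treated mice 2, 3 and 4 lay above all oil mice (log2 fold change 2.73 ± 1.09, edgeR adjusted p = 0.164). Treated mouse 5 had 1 count in a library where 3 counts correspond to 4.15 CPM, so its place against oil mice 2 and 3 was not resolved. DESeq2 called Mmp9 (adjusted p = 0.0433), as did edgeR with no low-count filter (0.0104). Mmp13, collagenase 3, the main interstitial collagenase of the mouse, had 0 to 7.65 CPM after oil and 8.64, 54.4, 25.8, 88.7 and 0 CPM after CCl4. The same mouse 5 again gave the lowest value (log2 fold change 3.76 ± 1.39, edgeR adjusted p = 0.118), and DESeq2 called Mmp13 too (adjusted p = 0.0225).

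Mmp14, the membrane-type protease that activates the precursor of Mmp2, had the smallest log2 fold change of the 6 tested metalloproteinases in this comparison. It stood at 34.4 to 187 CPM after oil and 113 to 266 CPM in wild-type CCl4 mice, with a log2 fold change of 0.82 ± 0.48 (edgeR adjusted p = 0.381). Mmp19 was detected with at most 32 counts in a mouse and was at 0 to 5.64 CPM after oil and 1.72 to 17.3 CPM in wild-type CCl4 mice. It was too low to be tested, and its exons overlap those of 2 antisense genes.

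Among the inhibitors, Timp2 and Timp3 traded places. Timp2, which blocks most metalloproteinases and also binds Mmp14 in the activation of Mmp2, had 299, 537, 364, 410 and 361 CPM after oil. In wild-type CCl4 mice it had 211, 28.2, 53.4, 101 and 158 CPM, each below the lowest oil mouse. It fell by 1.84 ± 0.41 on the log2 scale (edgeR adjusted p = 0.00590). Summed Kupffer cell markers were lower in the same 5 mice, as given above, and their part in the lower Timp2 and Mmp27 was not tested.

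Timp3, which binds to the matrix and also inhibits ADAM proteases, had 82.7, 213, 40.7, 65.3 and 52.1 CPM after oil. After CCl4 it had 183, 366, 198, 346 and 744 CPM in wild-type mice. Only oil mouse 2 reached into the treated range, and the log2 fold change was 2.02 ± 0.46 (edgeR adjusted p = 0.00722). Timp3 exons overlap those of the antisense gene Syn3. Timp1, the inhibitor known to rise in stellate cells during fibrosis, was at 0 counts in all oil mice and in 4 of 5 wild-type CCl4 mice, with 4 counts in mouse 1. A count of 0 allows up to 1.43 to 3.76 CPM in an oil library. Summed stellate cell and fibroblast markers were 77.0 to 499 CPM after oil and 40.7 to 285 CPM in wild-type CCl4 mice, all 12 of them found in each group.

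With the index series as a term, Mmp12 (log2 fold change 2.10, edgeR adjusted p = 0.749), Mmp27 (−7.38, adjusted p = 0.411), Timp2 (−2.62, adjusted p = 0.133) and Timp3 (2.25, adjusted p = 0.401) kept their direction in wild-type mice and no longer passed. No comparison within 1 series was possible there, since the series hold 1 treatment each among wild-type mice.

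**Figure D2:**
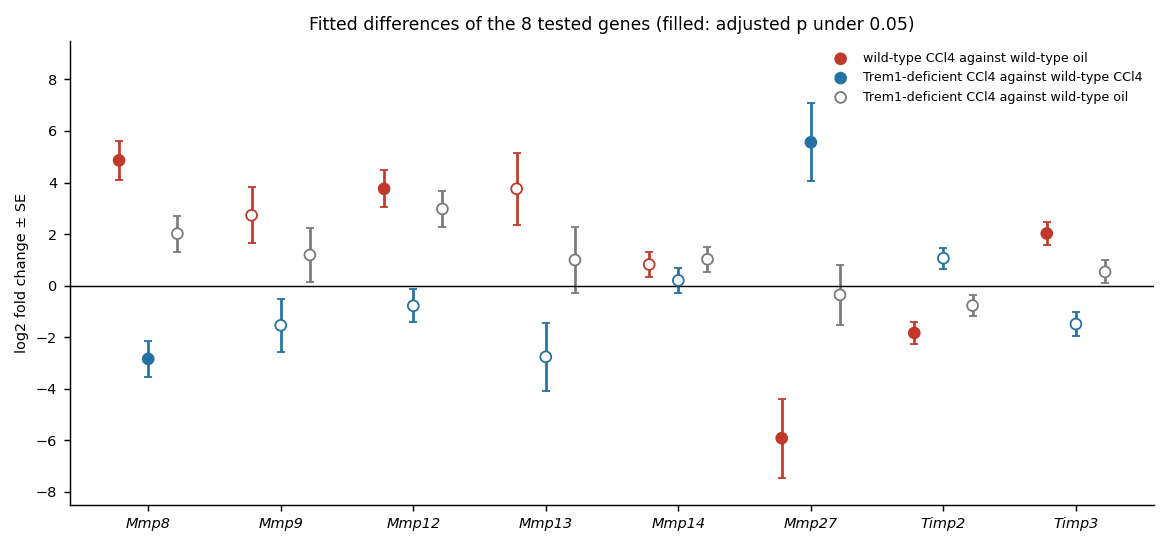
Fitted log2 fold changes with their SE for the 8 tested genes in the 3 comparisons, filled where the adjusted p was under 0.05. In wild type Mmp8 and Mmp12 lie at 4.86 and 3.76 and Mmp27 at −5.92, and the Trem1-deficient mice differ from them by −2.84 in Mmp8 and 5.56 in Mmp27.

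Trem1-deficient mice given CCl4 had less Mmp8 and more Mmp27 than wild-type mice given CCl4. These were 2 of 8 tested genes, 1 lower and 1 higher (edgeR adjusted p under 0.05), where 2.06% of all tested genes passed, 1.28% lower and 0.778% higher. Observed ranges did not overlap for Mmp27 and Timp3, 2 of 8, against 5.54% of all tested genes. For Mmp27 the gap lay below the 3-count floor of the wild-type CCl4 libraries. The comparison asks how the response to injury differs without Trem1, and it shares the wild-type CCl4 mice with the comparison above, so opposite signs in the 2 comparisons are not independent.

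Mmp8 stood at 47.8, 25.4, 43.9, 40.0 and 1.17 CPM in the Trem1-deficient mice, against 37.2 to 472 CPM in wild type. Wild-type mouse 1 fell among the deficient mice and the other 4 wild-type mice lay above all of them. The log2 fold change was −2.84 ± 0.69 (edgeR adjusted p = 0.0244). Within series B alone it was −3.00 (adjusted p = 0.178) and with the series as a term −3.00 (adjusted p = 0.105). Without wild-type mouse 4 it was −2.39 (adjusted p = 0.107), without deficient mouse 2 −2.77 (0.0720) and without deficient mouse 4 −2.94 (0.0527).

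Mmp27 had 16.0, 1.69, 33.5, 11.4 and 28.7 CPM in the Trem1-deficient mice, each above the observed 0 to 1.33 CPM of wild-type CCl4 mice. Deficient mouse 2 had 5 counts, and a count of 0 allows up to 1.72 to 4.15 CPM in a wild-type CCl4 library. The separation of deficient mouse 2 from the wild-type mice at 0 was thus not resolved. Pooled over mice, 193 counts against 2 gave a ratio of 51.9 (95% interval 14.2 to 432, counting error only). The fitted log2 fold change was 5.56 ± 1.52 (edgeR adjusted p = 0.0469), close to the threshold. The direction held on leaving out any of the 15 mice, with adjusted p from 0.0210 to 0.114, and 13 of these 15 fits no longer passed. Without wild-type CCl4 mouse 1, the level in Trem1-deficient mice was at least 26-fold higher against 3 counts over the other 4 wild-type CCl4 mice. It did not pass within series B either (5.98, edgeR adjusted p = 0.191).

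Timp3 was lower in all 5 Trem1-deficient mice, at 125, 162, 140, 54.7 and 170.5 CPM, than in any wild-type CCl4 mouse, at 183 CPM or more. The log2 fold change of −1.49 ± 0.45 did not pass over all genes (edgeR adjusted p = 0.0790), and DESeq2 called it (adjusted p = 0.0227), as did the edgeR fits without wild-type CCl4 mouse 1 (0.0345) and without oil mouse 2 (0.0395). Timp2 was at 133, 188, 285, 255 and 292 CPM, and wild-type mice 1 and 5 (211 and 158 CPM) lay within that range (log2 fold change 1.06 ± 0.40, edgeR adjusted p = 0.188). Without wild-type mouse 1 it was 1.50 (edgeR adjusted p = 0.0267). Deficient mice 1 and 2, at 133 and 188 CPM of Timp2, are of series A. Deficient mice 3, 4 and 5, of series B like all wild-type CCl4 mice, were at 255 to 292 CPM, above every wild-type CCl4 mouse. Timp1 had 29 counts (9.82 CPM) in Trem1-deficient mouse 2 and 0 in the other 4.

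Mmp9 had 85.5, 29.1, 55.7, 12.2 and 0 CPM in the Trem1-deficient mice and differed from wild-type CCl4 mice by −1.54 ± 1.03 on the log2 scale (edgeR adjusted p = 0.514). Mmp13 was at 0 to 15.5 CPM, with a log2 fold change of −2.76 ± 1.32 (edgeR adjusted p = 0.316). Mmp12 had 73.8, 26.4, 289, 99.6 and 86.1 CPM and overlapped wild type widely (−0.78 ± 0.63, edgeR adjusted p = 0.611). With SEs of this size, differences of these 3 genes between the genotypes were not resolved at 5 mice a group.

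Mmp14 in the Trem1-deficient mice split with the index series and with the sex signal given above, which cannot be told apart among these mice. Mice 1 and 2, of series A, had 379 and 358 CPM, and mice 3, 4 and 5, of series B, had 183, 99.6 and 53.3 CPM. The pooled log2 fold change against wild-type CCl4 mice was 0.20 ± 0.48 (edgeR adjusted p = 0.894), and within series B it was −0.74. Its direction between the genotypes thus turned with the choice of mice. Mmp12 showed the reverse order, at 26.4 to 73.8 CPM in series A and 86.1 to 289 CPM in series B. Mmp19 was at 0 to 10.8 CPM and was not tested.

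Against oil-treated wild-type mice, Trem1-deficient CCl4 mice had 0 of 8 tested genes past the threshold (edgeR), where 0.233% of all tested genes passed. At an unadjusted p under 0.05 there were 3 of 8, against 4.66% of all tested genes. This comparison changes treatment and genotype together. Mmp12 had the smallest p: 4 of the 5 deficient mice lay above the highest oil mouse (38.4 CPM), with a log2 fold change of 2.98 ± 0.69 (edgeR adjusted p = 0.0764), which passed with DESeq2 (adjusted p = 0.00275) and dropped to 1.77 within series A. Mmp8 differed by 2.02 ± 0.70 (edgeR adjusted p = 0.565) and was above the highest oil mouse in 4 of 5 deficient mice. Timp2 was lower in every deficient mouse than in any oil mouse, against 2.9% of all tested genes with ranges apart, with a log2 fold change of −0.77 ± 0.40 (edgeR adjusted p = 1.00). Mmp27 in all 5 deficient mice lay within the oil range (log2 fold change −0.36), and Mmp14 differed by 1.02 ± 0.48 (edgeR adjusted p = 1.00).

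Along the chromosome 9 cluster, nearly all counts fell to 4 genes. In their order, Mmp13 had 317 counts over the 15 mice, Mmp12 had 2450, Mmp1b 24, Mmp3 1, Mmp1a 0, Mmp10 0, Mmp8 1876, Mmp27 339, Mmp20 16 and Mmp7 0. The 4 members named above were thus the only tested genes of the cluster. Mmp13, Mmp12 and Mmp8 had higher means in wild-type CCl4 mice than in oil mice while Mmp27, next to Mmp8, was at 1.33 CPM or less in each of them.

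**Figure D3:**
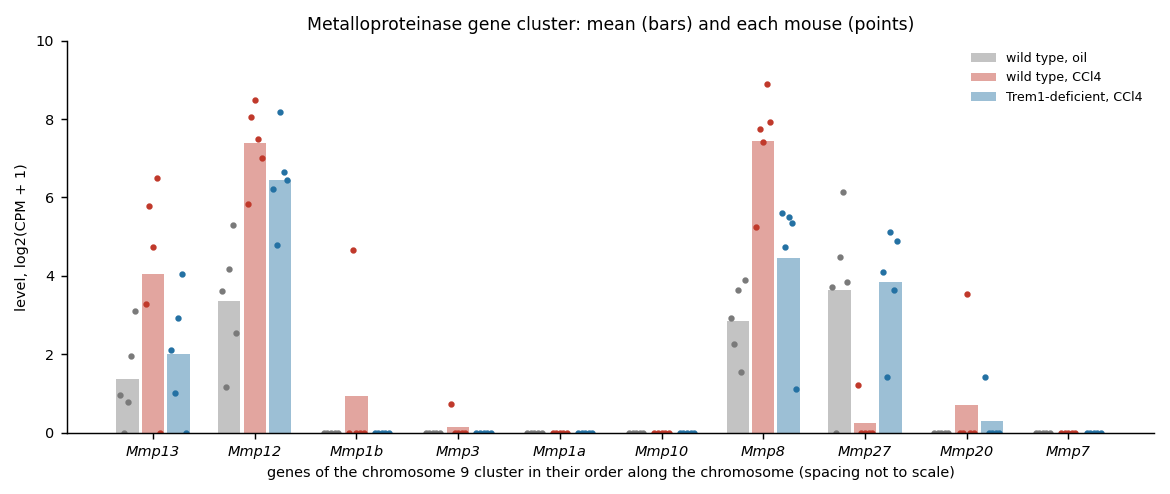
Mean log2(CPM + 1) as bars and each mouse as a point for the 10 Mmp genes of the chromosome 9 cluster, in chromosome order with equal spacing, for the 3 groups. Mmp8 reaches 472 CPM in wild-type CCl4 mice, where its neighbour Mmp27 is at 1.33 CPM or less.

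Summed over genes, metalloproteinase tags were higher in every wild-type CCl4 mouse than in any oil mouse, and TIMP tags overlapped between the groups. These sums are described without a test. The 7 metalloproteinase genes together gave 172 ± 69.4 CPM (SD, n = 5) after oil, 762 ± 299 in wild-type CCl4 mice and 426 ± 198 in Trem1-deficient CCl4 mice. Every wild-type CCl4 mouse (297 to 1033 CPM) exceeded every oil mouse (106 to 281 CPM), and the Trem1-deficient mice (169 to 613 CPM) overlapped both. The 3 TIMP genes together gave 485 ± 152, 478 ± 248 and 363 ± 83.4 CPM in the same order, with overlapping ranges. Timp2 made up 71.6 to 89.9% of the TIMP tags after oil, 7.14 to 53.2% in wild-type CCl4 mice and 51.6 to 82.3% in Trem1-deficient mice. Metalloproteinase over TIMP tags averaged 0.364 after oil, 1.94 in wild-type CCl4 mice and 1.27 in Trem1-deficient mice, with an SD of 1.20 and 0.742 in the last 2. Such a ratio of tags is not a ratio of proteins or of activity.

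**Figure D4:**
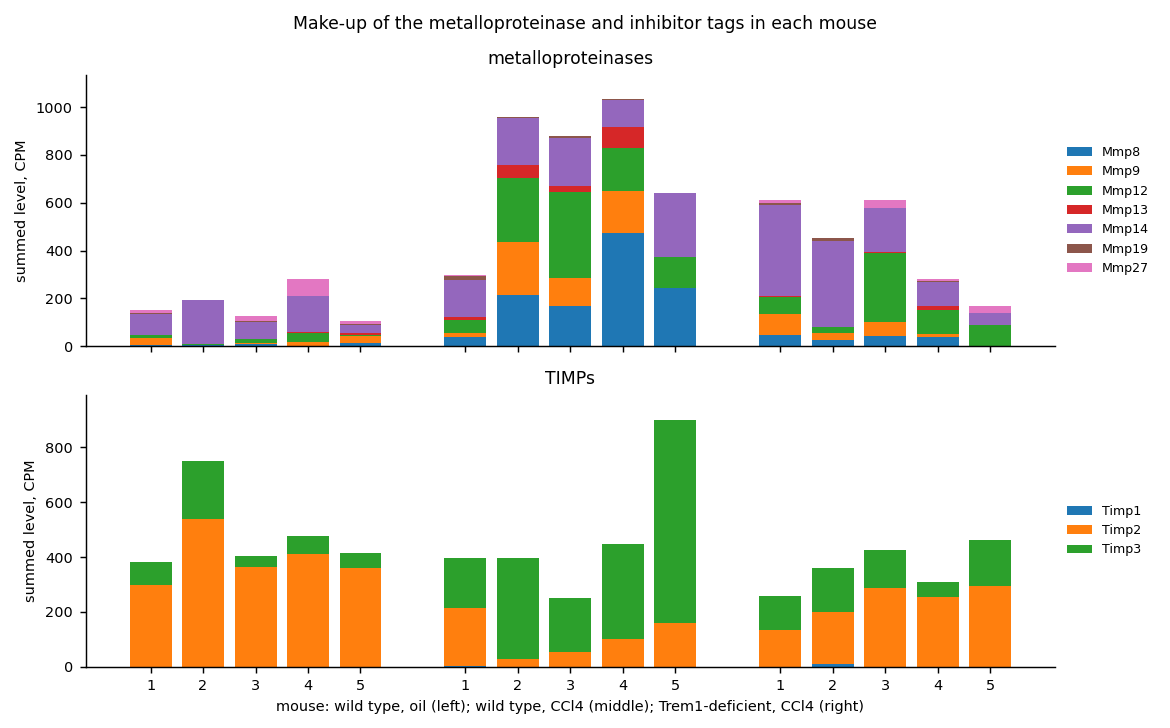
Stacked CPM of the 7 metalloproteinase genes (top) and the 3 TIMP genes (bottom) in each mouse of the 3 groups. The TIMP total overlaps between groups while its main part is Timp2 after oil and, in 4 of 5 wild-type CCl4 mice, Timp3.

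The remaining metalloproteinase genes and Timp4 were too low to be tested. Of 17 such genes in the table, 0 passed the filter on low counts and 8 had no count in any mouse. Mmp2, the gelatinase that Mmp14 activates, had 13 counts over the oil mice, 3 over wild-type CCl4 mice and 0 over Trem1-deficient mice. Mmp16, another membrane-type protease, averaged 11.4 CPM after oil, from 40 counts (50.1 CPM) in mouse 2, 7 in mouse 4 and 0 in the other 3, and had 1 count over wild-type CCl4 mice and 0 over Trem1-deficient mice.

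Inhibitors, activators and binding partners outside the families were next. Over all tested genes, for this list and those below, 3.04% passed as higher and 2.09% as lower after CCl4 in wild type. Between the genotypes these shares were 0.778% and 1.28%, and 0.233% of all tested genes passed in Trem1-deficient mice against oil. After CCl4 in wild type, 4 of 10 tested rose and 1 fell (edgeR adjusted p under 0.05), with a median log2 fold change of 1.73 against 0.06 over all tested genes. Slpi, an inhibitor of neutrophil elastase, rose from 8.24 to 182 CPM on average (log2 fold change 4.46 ± 0.70). Lcn2, which binds Mmp9, rose by 6.28 ± 0.90 and the serine protease inhibitor gene Serpina3n by 7.55 ± 0.87, which was 4.64 with the index series as a term and still passed. Lrp1, the receptor that takes up complexes of proteases and inhibitors, fell by 1.05 ± 0.26. Between the genotypes under CCl4, Slpi fell by 2.76 ± 0.64 (edgeR adjusted p = 0.0168) and Lrp1 rose by 1.12 ± 0.26 (edgeR adjusted p = 0.0171), 2 of 10, with a list median of −1.80 against −0.03 over all genes. Against oil, Trem1-deficient mice had higher Serpina3n (5.76 ± 0.82) and Lcn2 (4.01 ± 0.83), 2 of 10, and Lcn2 lost the call in 10 of 15 fits that left out 1 mouse. Within series A, Serpina3n was at 3.54 (edgeR adjusted p = 0.461). Summed hepatocyte markers (11 found of 12, with Ass1 at 0) were 3122 to 13812 CPM after oil, 10336 to 37147 in wild-type CCl4 mice and 1725 to 18433 in Trem1-deficient mice, and their part in these differences was not tested.

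Of 11 tested ADAM and ADAMTS genes, 2 rose and 1 fell after CCl4 in wild type (3.04% and 2.09% of all tested genes). The list median was −0.02. Adam8, a protease of activated leukocytes, rose by 4.42 ± 0.77, from 11.7 to 245 CPM on average. It was at 13.2 CPM in Trem1-deficient mice (difference −4.19 ± 0.75 from wild type, edgeR adjusted p = 0.00150). It was the 1 of 11 called between the genotypes, against 2.06% of all tested genes, and the list median there was 0.32. Adamts1 rose by 2.03 ± 0.60 (edgeR adjusted p = 0.0465), a call lost in 12 of 15 fits that left out 1 mouse, and Adamdec1, known from intestinal macrophages and dendritic cells, fell by 3.53 ± 0.72. Against oil, 0 of 11 passed in Trem1-deficient mice in edgeR and 0 with DESeq2. At an unadjusted p under 0.05 there were 2, against 4.66% of all tested genes. The smallest p belonged to Adamts1 (1.50 ± 0.59) and Adam15 (1.24 ± 0.52).

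The plasminogen system, which activates several metalloproteinase precursors, had 4 of 11 tested genes higher and 1 lower after CCl4 in wild type. Of all tested genes 3.04% and 2.09% passed so, and the list median was 2.06. Anxa2, a cell surface binding site of plasminogen, rose by 1.98 ± 0.37 and Plaur, the urokinase receptor, by 3.59 ± 0.94. Plg, a gene of hepatocytes, rose by 2.29 ± 0.60 alongside the hepatocyte markers given above, and Serpinb6a fell by 2.31 ± 0.51. With the index series as a term, Plg was at 0.21 (edgeR adjusted p = 1.00). Between the genotypes 0 of 11 passed in edgeR (list median −0.87), and 5 were at an unadjusted p under 0.05, against 15.2% of all tested genes. DESeq2 called 3, against 616 of all 9001 genes, of which 2163 had no adjusted p. The smallest p belonged to Plg, at −2.05 ± 0.59 (edgeR adjusted p = 0.0727), and to S100a10, the partner of Anxa2, at −2.97 ± 0.87 (edgeR adjusted p = 0.0965). Against oil 0 of 11 passed in edgeR (list median 1.01) and 0 with DESeq2. At an unadjusted p under 0.05 there were 2, against 4.66% of all tested genes. These were Anxa2 at 1.11 ± 0.36 and Serpine2 at a mean of 16.3 CPM against 0.191.

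Cathepsins, which are lysosomal proteases, and their inhibitors the cystatins went mostly the other way: 1 of 11 tested genes rose and 6 fell after CCl4 in wild type. Of all tested genes 3.04% rose and 2.09% fell, and the list median was −1.13. Ctsl rose by 1.79 ± 0.36. Ctsb fell by 1.18 ± 0.25, Ctss fell by 1.15 ± 0.26 and Ctsh fell by 1.41 ± 0.36. Between the genotypes 3 of 11 were higher in Trem1-deficient mice, against 0.778% of all tested genes, with a list median of 1.03. These were Ctsd (1.26 ± 0.24), Ctsb (1.05 ± 0.25) and Ctsa (2.00 ± 0.52). Against oil 0 of 11 passed in edgeR (list median −0.03) and 0 with DESeq2. At an unadjusted p under 0.05 there were 3, against 4.66% of all tested genes. The smallest p belonged to Ctss at −0.66 ± 0.25 and Cst3 at −0.57 ± 0.24. The summed Kupffer cell markers were lower in wild-type CCl4 mice than in either other group, and their part was not tested.

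Matrix proteins, crosslinkers and remodelling factors had 8 of 14 tested genes higher and 0 lower after CCl4 in wild type. Of all tested genes 3.04% and 2.09% passed so, and the list median was 2.29. Vcan, versican, rose by 5.70 ± 0.78, Fn1, fibronectin, by 2.73 ± 0.41 and Ctgf by 5.38 ± 0.84. Lamc1, a laminin chain, had 0 counts in all oil mice. Wild-type CCl4 mice had 288 counts in all, with 1 mouse at 0 and up to 166 in 1 mouse. Pooled over mice, Lamc1 was at least 102-fold higher there against 3 counts over the oil group. Its call was lost in 1 of 8 alternatives other than leaving out a mouse. With the index series as a term, Fn1 was at 1.15 (edgeR adjusted p = 0.745). Summed hepatocyte markers averaged 6832 CPM after oil and 26790 in wild-type CCl4 mice, monocyte markers 725 and 3451 and neutrophil markers 724 and 5225, and their part in the higher matrix genes was not tested. Vcan is itself a member of the monocyte marker list, so that sum is not independent of it. Between the genotypes 3 of 14 were lower in Trem1-deficient mice and 0 higher (list median −1.63), against 1.28% and 0.778% of all tested genes. These were Tgfbi (−1.61 ± 0.33), Fn1 (−1.87 ± 0.40) and Vcan (−2.90 ± 0.66). With the series term Fn1 was at −1.42 and no longer passed. Against oil 0 of 14 passed in Trem1-deficient mice in edgeR (list median 0.83). At an unadjusted p under 0.05 there were 5, against 4.66% of all tested genes. DESeq2 called 3, against 74 of all 9001 genes, of which 1127 had no adjusted p. The smallest p belonged to Vcan, at 2.80 ± 0.71, and to Lamc1, at least 16.2-fold higher. With the index series as a term, the counts for CCl4 in wild type were 3 of 10, 1 of 11, 1 of 11, 0 of 11 and 2 of 14 in the order of these 5 lists, where 37 of all 9001 genes passed. Between the genotypes, the series term gave 2, 1, 0, 3 and 0, against 77 of all 9001 genes. Series B alone gave 2, 1, 0, 1 and 1, against 69 of all 9001 genes.

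Within groups, the genes that varied most like each member were found from deviations of log2 CPM from the group means over all 15 mice, among 7842 genes; these correlations are a description, and the genes of a library share its depth and its mix of cells. Genes that varied like Mmp9 included Crat (Pearson's r = 0.91), Sos2 (0.89) and Cxcr2 (0.88), of which Cxcr2 encodes a chemokine receptor of neutrophils. Mmp8 varied most like Srebf2 (0.91), Osm (0.89), Gclc (0.83) and Crispld2 (0.82). Mmp13 varied most like Cyr61 (0.91), Smap1 (0.90), Snhg6 (0.89) and Ugp2 (0.87), and those like Mmp12 included Zmpste24 (0.83), Hsd11b1 (0.79) and Rpl9 (0.76).

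For Mmp14 they were Orai1 (0.81), Col4a1 (0.76), Anxa2 (0.75) and Echs1 (0.74), and for Mmp27 Ube4b (0.86), Zmpste24 (0.86), Cep83 (0.85) and Trip11 (0.84). Timp2 varied most like C3ar1 (0.88), Arl4c (0.87), Paf1 (0.85) and Sgsh (0.85), of which C3ar1 encodes a complement receptor of myeloid cells. Timp3 varied most like Esam (0.91), Galnt18 (0.86), Calm2 (0.85) and Ehd3 (0.85), of which Esam encodes an endothelial adhesion molecule and Ehd3 is a marker of sinusoidal endothelium. Among the members themselves, the highest correlations were between Mmp9 and Mmp13 (0.78) and between Mmp12 and Mmp27 (0.72), and the lowest was between Mmp9 and Timp2 (−0.65).

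Mmp8 and Mmp9 are stored in neutrophil granules, and neutrophil markers moved with them, although the CD11b bead depletion is a step that removes neutrophils and monocytes. Summed neutrophil markers were 224 to 1625 CPM after oil and 360 to 3567 CPM in Trem1-deficient mice (Elane and Mpo at 0). In wild-type CCl4 mice 1 to 5 they were 1167, 6509, 6515, 10955 and 979 CPM, with 12 of the 13 markers in the table found and Elane at 0. S100a8 and S100a9 averaged 2283 and 2362 CPM there, against 298 and 192 after oil. Among granule genes, Ngp averaged 21.4 against 23.7, Ltf 8.65 against 1.19 and Camp 4.73 against 2.43 CPM. Ltf and Camp were too low to be tested. Mice 1 and 5, low in neutrophil markers, were also the lowest in Mmp9, at 18.6 and 1.38 CPM (28 and 1 counts). Mmp8 was lowest in mouse 1, at 37.2 CPM, and stood at 244 CPM in mouse 5. Within groups the correlation with the neutrophil sum was 0.73 for Mmp9 and 0.60 for Mmp8 over 15 mice, and that with the monocyte sum was 0.67 for Mmp8. Monocyte markers summed to 562 to 989 CPM after oil, 1183 to 4627 in wild-type CCl4 mice and 514 to 2057 in Trem1-deficient mice, all 12 found in each group. The part of these cells in the differences of Mmp8 and Mmp9 was not tested.

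Markers of the sinusoidal endothelium, all 12 found in each group, summed to 1436 to 4203 CPM after oil, 1362 to 2680 in wild-type CCl4 mice and 1628 to 6770 in Trem1-deficient mice, and their part in the Timp3 differences was not tested. Within groups the correlation of Timp3 was 0.53 with the endothelial sum and −0.72 with the Kupffer cell sum. It was 0.58 with the stellate cell and fibroblast sum, 0.42 with the dendritic cell sum and 0.40 with the monocyte sum. The positive link was thus not particular to the endothelial markers. Timp2 was low in the wild-type CCl4 mice, the group with low Kupffer cell markers, and within groups its correlation was −0.07 with the Kupffer cell sum and −0.54 with the neutrophil sum.

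**Figure D5:**
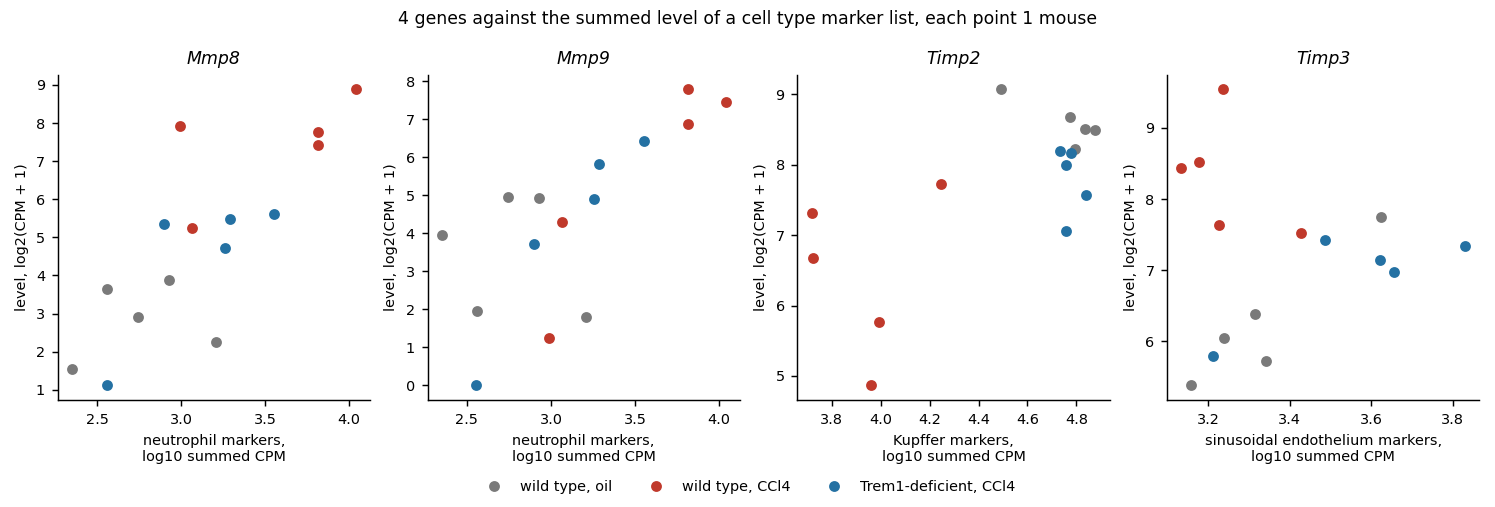
Log2(CPM + 1) of Mmp8 and Mmp9 against summed neutrophil markers, of Timp2 against Kupffer cell markers and of Timp3 against sinusoidal endothelium markers (log10 of summed CPM), each point 1 mouse, coloured by group. Wild-type CCl4 mouse 5 has 979 CPM of neutrophil markers with 244 CPM of Mmp8 and 1.38 CPM (1 count) of Mmp9.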

How the data were processed

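Per the labels' protocols, RNA of bead-selected Kupffer cells was made into Lexogen QuantSeq 3' libraries. The 60 label entries are 4 lanes for each of 15 mice, and the deposited table has 1 column per mouse, taken as the replicate. The authors deposited raw counts of reads per gene. Trimmomatic, STAR 2.5.1a, Partek 6.6 and mm10 stand in the submitters' processing notes without roles, and no source used here gives the gene annotation or strand setting. Molecular identifiers are not mentioned, so every interval and floor reflects counting error alone. The 4 tally lines of the table (unmapped, multimapping, unannotated and ambiguous reads) were kept out, and genes took 12.6 to 28.8% of reads.

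The main test was run in edgeR 4.0.16 under R 4.3.3 (filterByExpr by group, TMM, robust quasi-likelihood F-test) in 1 fit of 3 groups with 12 residual degrees of freedom, on 9001 genes, calling genes at a Benjamini-Hochberg adjusted p under 0.05. The common biological coefficient of variation was 0.888. SE is the log2 fold change over the square root of F. All pairs of mice within a group differed beyond counting noise (smallest chi-square 10.2 per degree of freedom). Alternatives were other scalings and filters, DESeq2 1.42.0, 2 groups only, a block by mouse number, the index series as a term or alone, and each mouse left out. Marker sums are CPM of the library total. Ratios of pooled counts have exact (Clopper-Pearson) 95% intervals. Promoter windows are 250 bases.

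The 10 genes, the 6 gene lists and the marker lists of 10 cell types were chosen with earlier results of these data known. Named are the 10 genes, Trem1, the Mmp genes of the chromosome 9 cluster, from each list up to 4 called genes with the smallest p (up to 2 where none passed), and for each tested member the 4 genes of 10 CPM or more most like it within groups. Some of these are not reported here.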

Additional observations from a re-analysis of the deposited data

Results flagged for a closer look

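Of 29 sets of 5 mice (each of the 10 genes in each group with any count), 5 had a mouse whose gap to its nearest neighbour exceeded 0.71 of the range. That limit is passed by about 1 in 20 sets of normally distributed values. In 3 of the 5 (Mmp27 and Timp1 in wild-type CCl4 mice and Timp1 in Trem1-deficient mice) 4 mice were at 0, so the gap was the whole range and that rate does not apply. Mmp12 in Trem1-deficient CCl4 mice was highest in mouse 3, at 289 CPM against 26.4 to 99.6 CPM in the other 4. Mmp27 in wild-type CCl4 mice was at 1.33 CPM (2 counts) in mouse 1 and at 0 in the others. Timp1 was at 2.66 CPM (4 counts) in the same mouse 1 and at 9.82 CPM (29 counts) in Trem1-deficient mouse 2, with 0 in the other mice of each group. Timp3 after oil was highest in mouse 2, at 213 CPM against 40.7 to 82.7 CPM in the other 4.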

How the results depend on the processing

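For CCl4 in wild type, 462 of 9001 genes passed in edgeR (274 higher, 188 lower), 1010 with DESeq2 and 813 of 16587 with no low-count filter. With the index series as a term 37 passed, and 1 of the 10 genes, Mmp8, in place of 5. Leaving out 1 mouse gave 302 to 770 genes (302 without oil mouse 5, 303 without oil mouse 3, 770 without CCl4 mouse 1) and 4 to 5 of the 10. Scaling by library totals gave 218 higher and 314 lower, with the median of all genes at −0.13 in place of 0.06.

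Between the genotypes 185 genes passed (70 higher, 115 lower), against 306 with library totals (211 higher, 95 lower, median 0.26 in place of −0.03). DESeq2 gave 616, with no adjusted p for 2163 of 9001 genes, and the fit with no filter 563 of 16587. With the series as a term 77 passed and within series B 69. In place of 2 of the 10 genes, 1 passed with at least 10 counts in at least 5 mice and in the fit of 2 groups only, and 0 with the replicate block, the series term or series B alone. DESeq2 gave no adjusted p for Mmp27. Leaving out 1 mouse gave 86 to 518 genes (86, 102, 113 and 118 without Trem1-deficient mice 2, 3, 4 and 1, 118 and 119 without wild-type CCl4 mice 3 and 4, 286 without oil mouse 2, 518 without wild-type CCl4 mouse 1) and 0 to 4 of the 10, with 4 only without wild-type CCl4 mouse 1.

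For Trem1-deficient CCl4 against oil 21 genes passed, against 74 with DESeq2 (1127 of 9001 without an adjusted p), 73 of 16587 with no filter and 11 with the series term. Mmp12 was the 1 of the 10 that passed with library totals, DESeq2, no filter or the replicate block, in place of 0. Leaving out 1 mouse gave 12 to 29 genes (12, 13, 12 and 12 without oil mice 1, 3, 4 and 5) and 0 to 1 of the 10 (Mmp12, without oil mouse 4, wild-type CCl4 mouse 1 or Trem1-deficient mouse 2).

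Direction turned between the genotypes for Mmp14 (−0.10 to 0.48 on leaving out 1 mouse), which was −0.11 with the replicate block, −0.74 with the series term, −0.74 within series B and −0.10 and −0.06 without Trem1-deficient mice 1 and 2. Against oil it turned for Mmp13 (−0.22 with the series term, −0.22 within series A), Mmp27 (0.24 with the block, −0.69 to 0.62 on leaving out 1 mouse, the latter without oil mouse 4) and Serpine2 (−0.43 with the series term, −0.45 within series A). The cause was not tested. Mouse numbers did not pair the mice (correlations of same-numbered deviations −0.06 to 0.04); the replicate block gave 365, 158 and 21 genes in the 3 comparisons, and with it Mmp8 between the genotypes was at −2.76 (adjusted p = 0.0758), Mmp27 at 5.92 (0.0706) and Mmp27 after CCl4 in wild type at −5.68 (0.0604). No other call of the 10 genes was lost with the block. Among genes of the lists, calls were lost on leaving out 1 mouse between the genotypes in 8 of 15 fits for Ctsa, 6 for Slpi, 5 for Vcan, 3 for Ctsb and 2 for Lrp1, and for CCl4 in wild type in 6 for Plg, 3 for Plaur and 1 for Ctsh. Depth limits Mmp19, Mmp27 and Timp1, whose counts in many mice lie near the 3-count floor.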
